A study of Mus musculus with 6 samples.

Results

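The 10 genes described here belong to the Notch pathway. They are 3 receptors (Notch1, Notch2 and Notch3), 2 ligands (Dll1 and Jag1), the DNA-binding effector Rbpj, 3 target genes of the HES/HEY family (Hes1, Hey1 and Heyl) and Numb, an adaptor protein that opposes Notch signaling. They were chosen by gene symbol, and all 10 were found among the 22706 genes of the table. Values came from 6 RNA-seq libraries of freshly sorted muscle stem cells (MuSCs), the PAX7-positive cells from which skeletal muscle regenerates, with 2 libraries in each of 3 groups. Control mice were wild type, mdx mice lack dystrophin through a mutation of its gene and serve as a mouse model of Duchenne disease, and Sirt6mKO/mdx mice are mdx mice in which Sirt6, the gene of a histone deacetylase, was deleted. The 2 libraries with that last label are called the third group below. All samples were labelled C57BL/6, while by the study's methods the mdx allele came from C57BL/10ScSn-Dmdmdx/J mice. In the third group loxP sites around exons 4 to 6 of Sirt6 were recombined by a constitutive Cre under control of Pax7, so the deletion covers the muscle lineage from development on and is not limited to adult MuSCs. The labels give neither the age of the mice nor how many went into a library, and the study's text describes adult male mice for these genotypes.

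Notch signaling works between neighboring cells. A ligand of the Delta or Jagged type on one cell pulls on a receptor of the other, the receptor is cleaved by ADAM proteases and then by gamma-secretase, and its intracellular part moves to the nucleus, where it joins RBPJ and Mastermind-like coactivators to switch on HES and HEY genes, whose products are themselves repressors of transcription. Without it RBPJ holds corepressors at the same genes. In MuSCs the pathway is best known for keeping cells quiescent and undifferentiated, and loss of Rbpj in these cells is known to deplete the pool.

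Of the 10 genes, Hes1 was higher in the third group, whose libraries are labelled Sirt6mKO/mdx, than in both other groups, and Notch3 and Heyl were lower there than in control. No member passed the test between mdx and control, although 8 of the 10 differences were negative. A gene was called when its Benjamini-Hochberg adjusted p from limma, over 15915 genes tested, did not exceed 0.05 and its log2 fold change was at least 1 in size, and all 10 members were abundant enough to be tested. Fold changes are differences of mean log2(value + 1), where the value is the deposited normalized read count. As background, 6.89% of all tested genes were called higher and 7.34% lower in mdx than in control, 5.62% higher and 2.54% lower in the third group than in mdx, and 5.19% higher and 2.68% lower than in control. Against these shares stood 0 of 10 members for mdx, 1 higher and 0 lower in the third group against mdx, and 1 higher and 2 lower against control. An unadjusted p under 0.05 was reached by 1, 3 and 7 members in the 3 comparisons, and by 4930, 4004 and 3828 genes of all those tested.

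The approximate depth was between 4407597 and 9738836 reads per library. Sirt6 itself was not lower in the third group, with 37 and 30 normalized reads against 33 and 40 in mdx, and the values are per gene and cannot show the loss of 3 exons, so the third group is taken here by its label. Xist was at 16772 and 12950 for control and between 7 and 34 in the other 4, while the Y-linked Ddx3y was at 3 and 8 in control and between 1024 and 1767 in the others. The control libraries thus go against the male mice that the study's text names, and sex and genotype cannot be told apart in any comparison with control. MuSC markers were present throughout, with Pax7 between 2167 and 3236 and the 8 listed markers summing to between 20397 and 28040. Of these Sdc4 was not steady, with 7692 and 6224 for control, 1100 and 1049 for mdx and 2753 and 2822 for the third group, and was called in all 3 comparisons. Myog, a gene of myogenic differentiation, was at 124 and 281 for control, 945 and 920 for mdx and 432 and 1232 for the third group and was called higher in both than in control. Other genes of the myogenic list went the other way. Ckm and Myh3 were called lower in mdx than in control (-1.64 and -1.34, limma adjusted p = 0.0406 and 0.0430), and Myod1, at -0.03, was not called. Among genes of the surface proteins used for depletion, Ptprc (CD45) did not exceed 19 in any library. Pecam1 (CD31) was at 199 and 86 in control and between 20 and 114 in the others, and was called lower in mdx than in control. Ly6a (Sca1) was at 3 and 9 in control and between 15 and 79 in the others, and was called higher in mdx than in control. The part of these genes in the results was not tested. The 2 comparisons of the third group also depend on scaling. With the values as deposited, 68.8% of called genes were higher against mdx and 65.9% against control, and these shares fell to 14% and 14.5% when all libraries were set to the same total, which moved the median difference of all genes to -0.58 in both. The study's methods call such libraries biological replicates, the labels do not tie them to animals, and p-values measure the spread between these libraries.

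Levels between genes were compared as normalized reads per kilobase of annotated exon. Over the 6 libraries the order was Notch3 with a mean level of 603, Heyl 430, Notch2 249, Hes1 239, Hey1 182, Jag1 116, Notch1 110, Dll1 89.9, Numb 58.8 and Rbpj 22.1 normalized reads per kilobase. In control, Notch3 at 866 ± 144 (SD, n = 2) stood above Heyl at 579 ± 119, and their libraries did not overlap. Next came Notch2 at 352 ± 26.1 and Hes1 at 183 ± 52.4, which was within the spread of Hey1 at 152 ± 43.5, and Notch1, Jag1 and Dll1 lay close together between 89.5 and 132 on the same scale. In the third group, Hes1 at 379 ± 55.9 reached the level of Notch3 at 361 ± 22.7 per kilobase, a difference within their spread. Rbpj, which every receptor needs, had the lowest level per kilobase of exon, with 12750 exonic bases annotated against 2037 for Hes1. These bases are merged over all annotated transcripts of a gene, so levels are understated where the transcripts present are shorter.

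**Figure D1:**
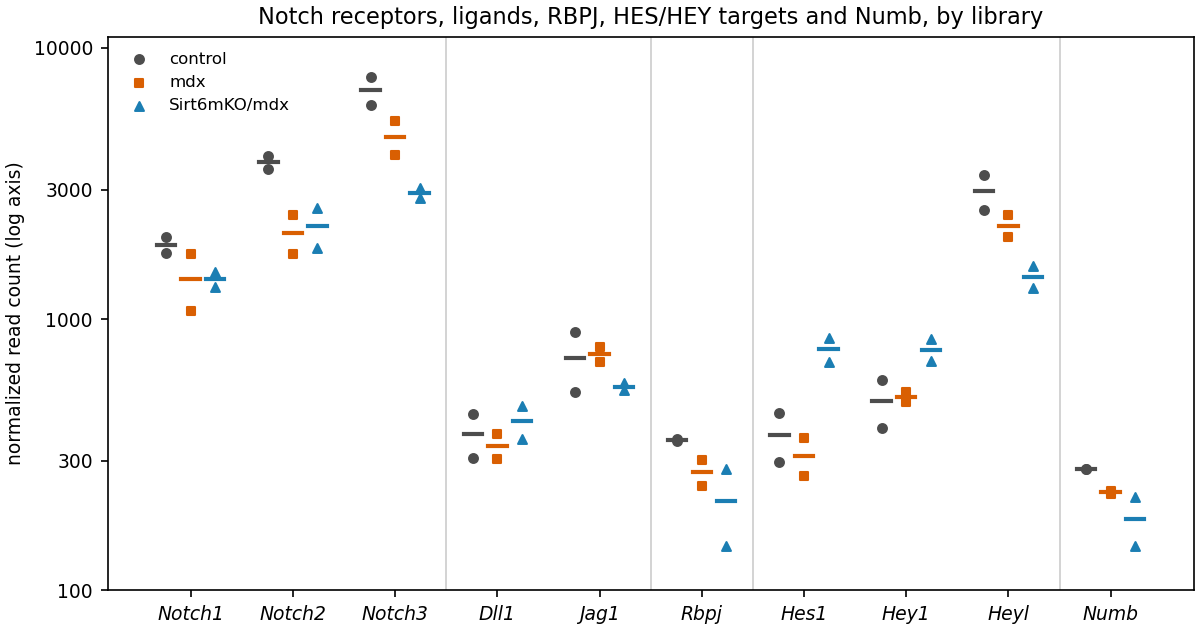
Normalized read count (log axis) of the 10 genes in each of the 6 libraries, with points for single libraries and bars for group means. Group means of Notch3 and Heyl are highest in control and lowest in the libraries labelled Sirt6mKO/mdx, while both libraries of that label lie above all others for Hes1 (692 and 853) and Hey1 (843 and 700).

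Notch3 (ENSMUSG00000038146, GRCm38 chr17:32120820-32166880, minus strand) was the most abundant receptor. In the adult it is known from pericytes and smooth muscle as well as from quiescent MuSCs. Its normalized read count was 7831 and 6184 for control, 4041 and 5382 for mdx and 3049 and 2789 for the third group. The 3 groups did not overlap, with control highest and the third group lowest. The group means were 7008 ± 1165, 4712 ± 948 and 2919 ± 184 (SD, n = 2). Against control the log2 fold change of Notch3 in the third group was -1.25 (SE 0.32, 95% interval -1.94 to -0.57, limma with Benjamini-Hochberg adjusted p = 0.0255), that is 0.417 times the control level as a ratio of means. The steps that make it up, -0.58 from control to mdx and -0.68 from mdx to the third group, were not called (adjusted p = 0.244 and 0.205 by limma). With every library set to the same total the latter was -1.30 and was called (limma adjusted p = 0.0137), beside a median of -0.58 over all genes. Leaving out either control library or either library of the third group kept the difference from control between -1.08 and -1.43 but ended the call, with adjusted p from 0.059 to 0.254. In these bulk samples fewer cells of a type and less RNA per cell cannot be told apart, here and for every gene that follows.

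Notch2 (chr3:98013538-98150367, plus strand), the second most abundant receptor, had 3989 and 3591 normalized reads in the control libraries, 1743 and 2412 in those of mdx and 2569 and 1824 in the third group. Both control libraries lay above the other 4, which overlapped. Its log2 fold change in mdx against control was -0.88 (SE 0.29, 95% interval -1.51 to -0.26, limma adjusted p = 0.0526), the largest difference of a member in that comparison and just outside both limits of a call. Against mdx the third group differed by 0.08 (95% interval -0.55 to 0.71), an interval that 2 libraries per group leave wide. Notch1 (chr2:26457903-26516663, minus strand), the receptor most often studied in MuSC activation, was at 2001 and 1756 for control, 1068 and 1732 for mdx and 1308 and 1491 for the third group. Its control libraries lay above the other 4 by a small margin, and none of its differences passed the test, the largest being -0.46 between mdx and control (limma adjusted p = 0.280). Leaving out mdx replicate 1 moved that value to -0.11, and leaving out replicate 2 of the same group moved it to -0.81. With equal totals both receptors were called lower in the third group than in control, Notch2 at -1.41 and Notch1 at -1.03 (limma adjusted p = 0.00662 and 0.0313). The median over all genes was then -0.58.

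The receptors were also set against each other within each library. Notch3 made up 56.7% and 53.6% of the summed reads of the 3 receptors for control, 59.0% and 56.5% for mdx, and 44.0% and 45.7% for the third group. The ratio of Notch3 to Notch1, which does not depend on scaling between libraries, was 3.91 and 3.52 for control, 3.78 and 3.11 for mdx and 2.33 and 1.87 for the third group. Both measures overlapped between control and mdx, and both libraries of the third group lay below the other 4. The ratio of Notch2 to Notch1 was 1.99 and 2.05 for control, 1.63 and 1.39 for mdx and 1.96 and 1.22 for the third group, which overlapped mdx. The ratios are descriptions, and no test of them was made. The use of strand in counting was not stated, and part of the reads could belong to overlapping genes, which cover 6.03% of the exonic bases of Notch3, 5.02% of Notch2 and 9.76% of Notch1.

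Promoter windows of the receptors are shown because HES proteins, products of the target genes, are known to bind N-box and class C sites. Windows run from 250 bases before to 50 after a RefSeq transcription start (GRCm38.p6, 5′ to 3′ on the gene's strand), and capitals mark CACGAG or CACGCG on either strand.
Notch1, chr2:26503773-26504072, minus strand: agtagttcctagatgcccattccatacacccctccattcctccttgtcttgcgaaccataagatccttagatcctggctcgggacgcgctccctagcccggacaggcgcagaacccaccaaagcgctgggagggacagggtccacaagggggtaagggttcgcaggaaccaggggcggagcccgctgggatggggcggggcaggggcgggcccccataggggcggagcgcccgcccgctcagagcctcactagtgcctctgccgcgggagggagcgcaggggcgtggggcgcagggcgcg
Notch2, chr3:98013288-98013587, plus strand: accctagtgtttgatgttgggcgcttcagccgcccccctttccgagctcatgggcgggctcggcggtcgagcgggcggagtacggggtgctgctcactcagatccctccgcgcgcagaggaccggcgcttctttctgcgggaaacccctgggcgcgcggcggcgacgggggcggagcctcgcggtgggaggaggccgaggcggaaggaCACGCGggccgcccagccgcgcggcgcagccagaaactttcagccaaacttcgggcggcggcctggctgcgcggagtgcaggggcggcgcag
Notch3, chr17:32166841-32167140, minus strand: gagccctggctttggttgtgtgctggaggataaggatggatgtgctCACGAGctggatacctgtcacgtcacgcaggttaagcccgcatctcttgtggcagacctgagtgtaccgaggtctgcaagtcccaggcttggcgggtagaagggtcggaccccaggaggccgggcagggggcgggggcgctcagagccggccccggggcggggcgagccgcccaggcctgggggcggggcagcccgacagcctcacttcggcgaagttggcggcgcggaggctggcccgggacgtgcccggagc

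The window of Notch3 held CACGAG with its first base 204 bases before the start, that of Notch2 held CACGCG 42 bases before it, and that of Notch1 held neither. Windows were found for 7 of the 10 members, 11 windows in all. Of these, 5 windows, 1 each of Dll1, Jag1, Notch2, Notch3 and Numb, held such a site, against 14.7% of all 32851 mouse windows. The member windows had a GC content of 42.3% to 73%, against a median of 52.7% over all windows. The RBPJ core TGGGAA, searched on both strands, was found only in the 2 windows of Rbpj, against 25.6% of all windows, and its longer form GTGGGAA (6.38%), the E-box CACGTG (7.15%), the AP-1 site TGACTCA (5.20%) and the CRE TGACGTCA (1.79% of all windows) were in none of the 11. A match describes the letters of the window only and is not evidence of binding.

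No difference of a ligand was called with the values as deposited. Dll1 (chr17:15367354-15376872, minus strand), a Delta-type ligand of differentiating myogenic cells, had 447 and 308 normalized reads for control, 305 and 378 for mdx and 361 and 477 for the third group. The 3 groups overlapped, and no difference exceeded 0.29 on the log2 scale, with 95% intervals reaching from -0.71 to 0.87 over the 3 comparisons. A gene on the other strand overlaps 20.6% of its exonic bases. Jag1 (chr2:137081456-137116644, minus strand), a Jagged-type ligand, was at 538 and 894 for control, 791 and 694 for mdx and 579 and 547 for the third group. Its libraries in the third group lay below both mdx libraries, but within the range of control, and the difference from mdx was -0.40 (SE 0.27, limma adjusted p = 0.388). With equal totals that difference was -1.02 and was called (limma adjusted p = 0.0279), beside a median of -0.58 over all genes.

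Rbpj (chr5:53555779-53657445, plus strand), the factor on which all receptors act, was at 361 and 356 for control, 242 and 302 for mdx and 145 and 281 for the third group. The control libraries were nearly equal and above the other 4, and the 2 libraries of the third group were far apart. Its largest difference, -0.83 between the third group and control, was not called (SE 0.31, limma adjusted p = 0.115). With equal totals Rbpj was called lower in the third group, at -1.04 against mdx and -1.43 against control (limma adjusted p = 0.0398 and 0.00929). The median over all genes was then -0.58 in both comparisons. Numb (chr12:83794034-83921934, minus strand) had 279 normalized reads in both control libraries, 232 and 227 in mdx and 221 and 145 in the third group. The 3 groups did not overlap, yet the largest difference was -0.64 (SE 0.28, limma adjusted p = 0.180) between the third group and control, which with equal totals was -1.24 and was called (limma adjusted p = 0.0117). Receptors, effector and Numb thus all had their highest group mean in control.

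Among the 3 target genes, Hes1 and Heyl were called in opposite directions against control. Hes1 (ENSMUSG00000022528, chr16:30064384-30067796, plus strand) encodes a basic helix-loop-helix repressor that answers Notch but also other signals. It had 298 and 449 normalized reads in the control libraries, 363 and 263 in those of mdx and 692 and 853 in the third group. Both libraries of the third group lay above all 4 others, which overlapped. The group means were 374 ± 107, 313 ± 70.7 and 773 ± 114 (SD, n = 2). Hes1 was 2.47 times as high as in mdx by group means, a log2 fold change of 1.31 (SE 0.28, 95% interval 0.72 to 1.90, limma with Benjamini-Hochberg adjusted p = 0.0092), and 2.07 times as high as in control (1.07, SE 0.28, limma adjusted p = 0.0267). The difference between mdx and control was -0.24 (limma adjusted p = 0.593).

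The call of Hes1 against mdx was lost without mdx replicate 2 (1.08, adjusted p = 0.122) and without either library of the third group (1.46 and 1.16, adjusted p = 0.0958 and 0.140). Against control it was lost without control replicate 1 (0.77, adjusted p = 0.138) and without either library of the third group (1.22 and 0.92, adjusted p = 0.118 and 0.262). With every library set to the same total the differences from mdx and control were 0.68 and 0.46 and were not called (limma adjusted p = 0.132 and 0.320). With no minimum mean or with one prior variance for all genes, the calls of Hes1, Notch3 and Heyl in the third group were lost as well (limma adjusted p from 0.0912 to 0.201). Immediate early genes were read beside Hes1. All 16 on the list were called lower in mdx than in control and all 16 higher in the third group than in mdx, with median log2 fold changes of -3.09 and 2.89, and their summed level was 81869 and 88149 for control, 11230 and 13265 for mdx and 72632 and 78205 for the third group. Between the third group and control, 0 of the 16 were called higher and 2 lower, with a median of -0.14. For Hes1 the difference between mdx and control was not called. The part of these genes in the result for Hes1 was not tested.

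Hey1 (chr3:8663362-8667039, minus strand), a repressor that together with Heyl is known to be needed for MuSC quiescence, was at 397 and 598 for control, 536 and 495 for mdx and 843 and 700 for the third group. As for Hes1, both libraries of the third group lay above the other 4. Its log2 fold change was 0.58 against mdx (SE 0.26, 95% interval 0.02 to 1.13, limma adjusted p = 0.184) and 0.66 against control (limma adjusted p = 0.137), so neither was called, and with equal totals the difference from mdx turned to -0.051. Heyl (ENSMUSG00000032744, chr4:123233556-123249875, plus strand), which is also known from vascular smooth muscle, was the most abundant of the family, with 2530 and 3393 normalized reads for control, 2417 and 2000 for mdx and 1563 and 1303 for the third group. Its groups did not overlap and lay in the same order as those of Notch3. The group means were 2962 ± 610, 2209 ± 295 and 1433 ± 184 (SD, n = 2). Against control Heyl in the third group was at 0.484 times the control level by group means, with a log2 fold change of -1.04 (SE 0.28, 95% interval -1.63 to -0.45, limma adjusted p = 0.0299). The differences of -0.41 between mdx and control and -0.62 between the third group and mdx were not called (limma adjusted p = 0.333 and 0.174). With equal totals the difference of Heyl from mdx was -1.25 and was called (limma adjusted p = 0.0104), beside a median of -0.58 over all genes. The call against control was lost without control replicate 2 (-0.83, adjusted p = 0.164) and without either library of the third group (-1.17 and -0.91, adjusted p = 0.143 and 0.282).

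**Figure D2:**
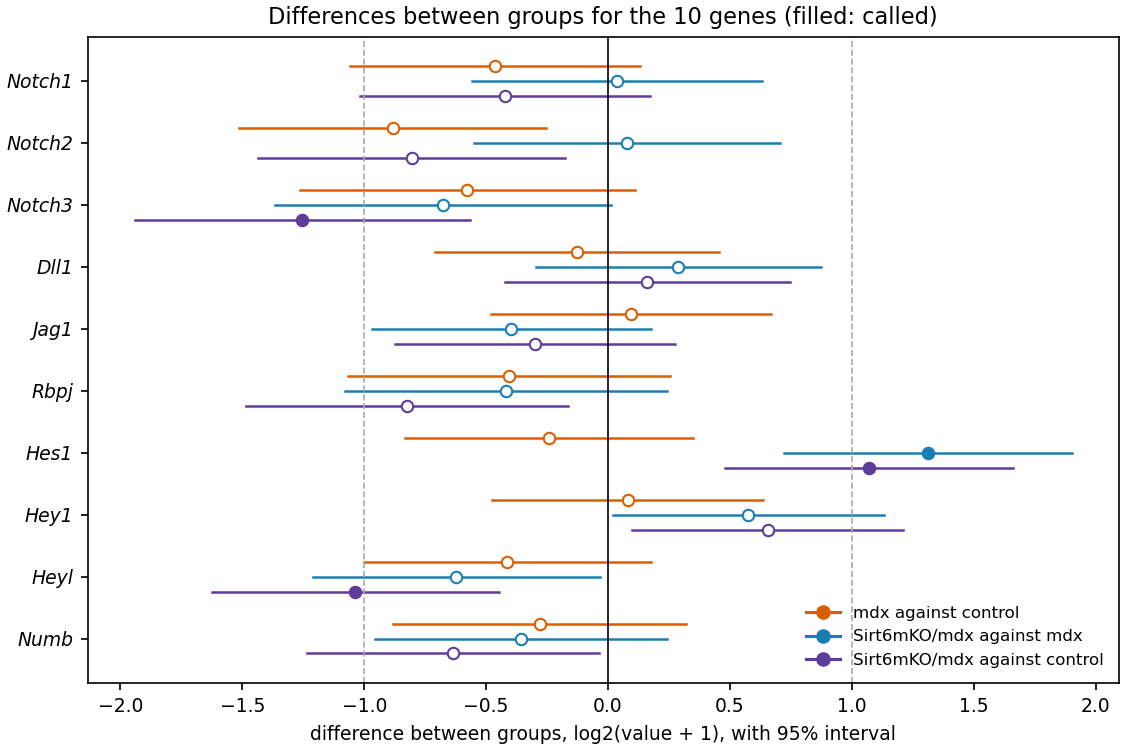
Differences between groups in mean log2(value + 1) for the 10 genes, with 95% intervals from limma, filled where called, and broken lines at the fold limits. In the comparisons of the libraries labelled Sirt6mKO/mdx, Hes1 lies at 1.31 against mdx and 1.07 against control, Notch3 at -1.25 and Heyl at -1.04 against control, and all other points are open.

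The targets were also set against each other within each library. Heyl gave 78.5% and 76.4% of the summed reads of Hes1, Hey1 and Heyl for control, 72.9% and 72.5% for mdx and 50.5% and 45.6% for the third group. The share of Hes1 was 9.24% and 10.1%, then 10.9% and 9.54%, then 22.3% and 29.9% in the same order of groups. The ratio of Hes1 to Heyl was 0.118 and 0.132 for control, 0.150 and 0.132 for mdx and 0.443 and 0.655 for the third group, and that of Hey1 to Heyl was 0.157 and 0.176, then 0.222 and 0.248, then 0.539 and 0.537. These ratios set genes of 1 library against each other and are the same under any scaling of libraries. In both, the libraries of the third group lay above all 4 others. The ratio of Notch3 to Heyl, in contrast, overlapped in all 3 groups, with 3.10 and 1.82 for control, 1.67 and 2.69 for mdx and 1.95 and 2.14 for the third group.

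**Figure D3:**
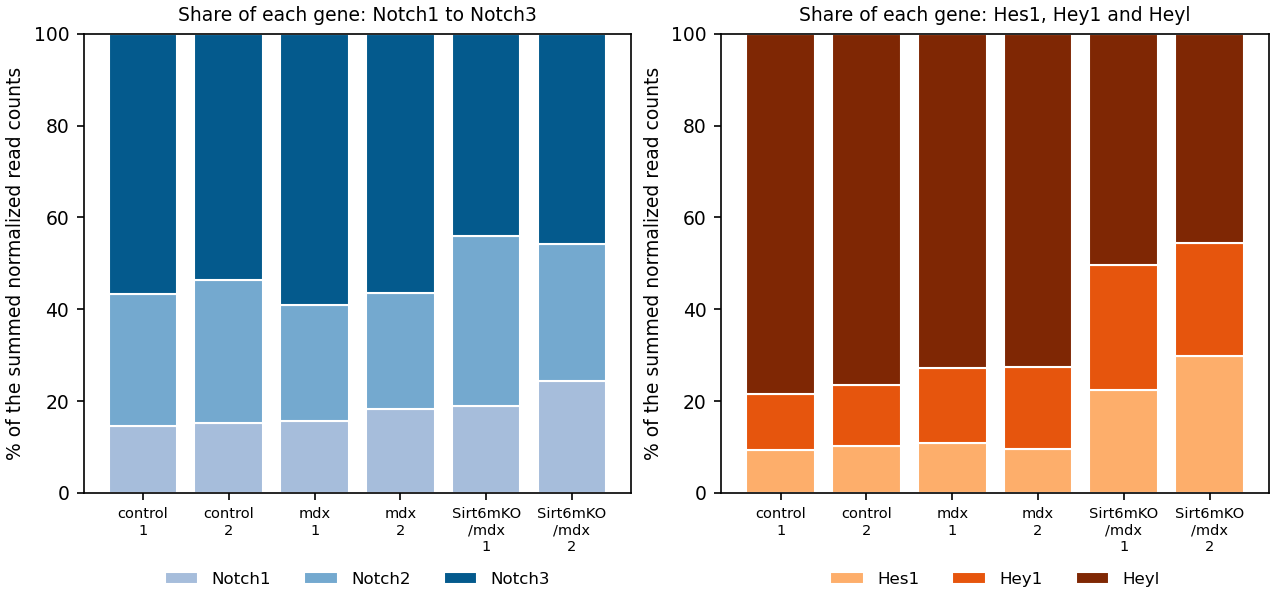
Share (%) of each receptor in the summed normalized reads of Notch1 to Notch3 (left) and of each target in those of Hes1, Hey1 and Heyl (right), 1 bar for each library. Heyl takes 72.5% to 78.5% of its sum in the 4 control and mdx libraries and 45.6% to 50.5% in the libraries labelled Sirt6mKO/mdx.

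Read by overlap alone, 6 of 10 members had both mdx libraries below both control libraries and 0 had them above, against 28.3% and 28.7% of all tested genes. In the third group 2 members lay above mdx without overlap and 4 below, against 28.8% and 27.2% of all genes. Against control 2 lay above and 6 below, against 26.3% and 25.3%. The median difference of the 10 genes was -0.34, -0.16 and -0.53 in the 3 comparisons, against 0.000701, 0.023 and 0.00589 over all genes tested. Both comparisons of the third group use its 2 libraries, and both comparisons with control use the control libraries, so the 3 sets of values are not independent.

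Markers of cells in which Notch3, Heyl and Hey1 are also known to be active were read beside these results. The 8 mural markers, of pericytes and smooth muscle, summed to 1806 and 2944 in the control libraries, 3788 and 3688 in those of mdx and 1753 and 2263 in the third group, led by Acta2, which was called higher in mdx than in control, and none was at 0 in every library. The sum was highest in mdx, but single genes differed from it, and 5 of the 8 had a difference above 0 in the third group against control. Tagln was at 532 and 838 for control, 534 and 1081 for mdx, and 201 and 328 for the third group, where it was called lower than in control and than in mdx. Abcc9 was at 168 and 167 for control and between 44 and 113 in the other 4 and was called lower in mdx than in control. Rgs5 was at 69 and 124 for control, 93 and 44 for mdx and 184 and 115 for the third group, and Myh11 at 6 and 18, then 19 and 27, then 34 and 32, while Pdgfrb was between 39 and 110 in all groups. No difference of these 3 was called. The 8 endothelial markers summed to 935 and 779 for control, 421 and 413 for mdx and 635 and 651 for the third group, with Emcn and Cldn5 under a mean of 5. The 8 cell cycle genes summed to 969 and 830, then 1324 and 1895, then 705 and 1139, with 6 called higher in mdx than in control and 3 called lower in the third group than in mdx. Pcna, the highest of them, was at 764 and 490, then 378 and 290, then 348 and 478. Against control 6 of the 8 differences of the third group were above 0, with a median of 1.15, and 0 were called. The 8 fibro-adipogenic markers summed to between 26842 and 46125, led by Col3a1, and were highest in mdx replicate 1. Pdgfra, Ly6a and Lum were high in replicate 1 of both mdx (195, 79 and 315) and the third group (142, 65 and 316). In replicate 2 they were at 18, 21 and 64 for mdx and 19, 15 and 102 for the third group. Col3a1 and Dpt lay lower in replicate 1 than in replicate 2 of the third group. Sums of 7 leukocyte and 6 Schwann cell markers did not exceed 194 and 243. Of the leukocyte markers Lyz2 was at 0 and 14 for control and between 26 and 67 in the others and was called higher in mdx and in the third group than in control, and Cd68, at 86 and 88 for control and 30 and 26 for mdx, was called lower in mdx. How far such cells took part in the values of the members was not tested.

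The rest of the pathway was read from a list of 61 other Notch genes, of which 60 were in the table and 57 had a mean of at least 5. Hes5 was not analysed here, and Hes2, Hes3 and Dner were below that mean. Between mdx and control, 3 were called higher and 2 lower, shares near or below those of all genes. The median difference of the list was -0.27, with 38 genes below 0 and 18 above. Without mdx replicate 1, 0 were called higher and 1 lower, without control replicate 1, 1 and 1, without mdx replicate 2, 1 and 3, and without control replicate 2, 3 and 4. Tle4, a Groucho-type corepressor that HES proteins recruit, fell from 341 and 302 normalized reads in control to 47 and 73 in mdx, a log2 fold change of -2.43 (SE 0.33, limma adjusted p = 0.00017). Maml1, a Mastermind-like coactivator of the RBPJ complex, fell from 308 and 248 to 109 and 152 (-1.10, limma adjusted p = 0.0203). Adam10, the protease of the first ligand-induced cleavage, rose from 400 and 508 to 955 and 872 (1.02, limma adjusted p = 0.0177). Snw1, a coactivator and splicing factor, rose from 104 and 150 to 377 and 248 (1.28, limma adjusted p = 0.0179), and Bend6, which is known to bind RBPJ and repress, rose from 9 and 7 to 64 and 45 (2.61, limma adjusted p = 0.0091).

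Between the third group and mdx, 4 of the 57 genes were called higher and 2 lower, near the shares of all genes, with a list median of 0.23. Without either library of the third group or without mdx replicate 1, 0 of these genes were called, and without mdx replicate 2, 1 was. Tle4 rose from 47 and 73 in mdx to 121 and 182 (1.33, limma adjusted p = 0.0228), which left it below the 341 and 302 of control. Hes6, a HES family gene that unlike its relatives is known to promote differentiation and to oppose Hes1, rose from 95 and 87 to 231 and 220 (1.30, limma adjusted p = 0.0361). Mfng, a Fringe glycosyltransferase of the receptors, rose from 14 and 9 to 53 and 43 (1.99, limma adjusted p = 0.0486). Pofut1, which adds the fucose that receptors need to bind ligand, fell from 300 and 304 to 145 and 106 (-1.28, limma adjusted p = 0.0236). Aph1b, a gamma-secretase subunit, fell from 152 and 130 to 54 and 71 (-1.17, limma adjusted p = 0.0482). Ncstn, another subunit of that protease, was at 637 and 641 in mdx and 347 and 315 in the third group, but its difference of -0.95 (limma adjusted p = 0.022) was under the fold limit.

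Against control, 1 of the 57 genes was called higher and 2 lower in the third group, where 5.19% and 2.68% of all tested genes were, with a list median of -0.13. All 3 calls were lost without either library of the third group, both lower calls without either mdx library, and the higher and 1 lower call without control replicate 2. Hes6 was higher than its control values of 86 and 45, with a log2 fold change of 1.84 (SE 0.36, limma adjusted p = 0.0056). Maml2, a relative of Maml1, was at 147 and 157 for control, 79 and 65 for mdx and 70 and 52 for the third group, and Dlk1, a noncanonical ligand, at 41 and 84, then 18 and 26, then 11 and 11. Both were called lower, with -1.32 for Maml2 (limma adjusted p = 0.0322) and -2.32 for Dlk1 (limma adjusted p = 0.028). By role, the 10 receptor cleavage genes had 1, 1 and 0 calls in the 3 comparisons, the 8 nuclear coactivators 2, 0 and 1, the 13 corepressors 2, 2 and 0, the 5 receptor glycosylation genes 0, 2 and 0, and the 7 receptor turnover genes and 4 ligand uptake genes none. Of 7 listed further targets 4 could be tested, and Hes6 was the 1 called. Notch4, the receptor of endothelial cells, had 77 and 15 normalized reads for control, 12 and 11 for mdx and 59 and 41 for the third group and was not called.

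**Figure D4:**
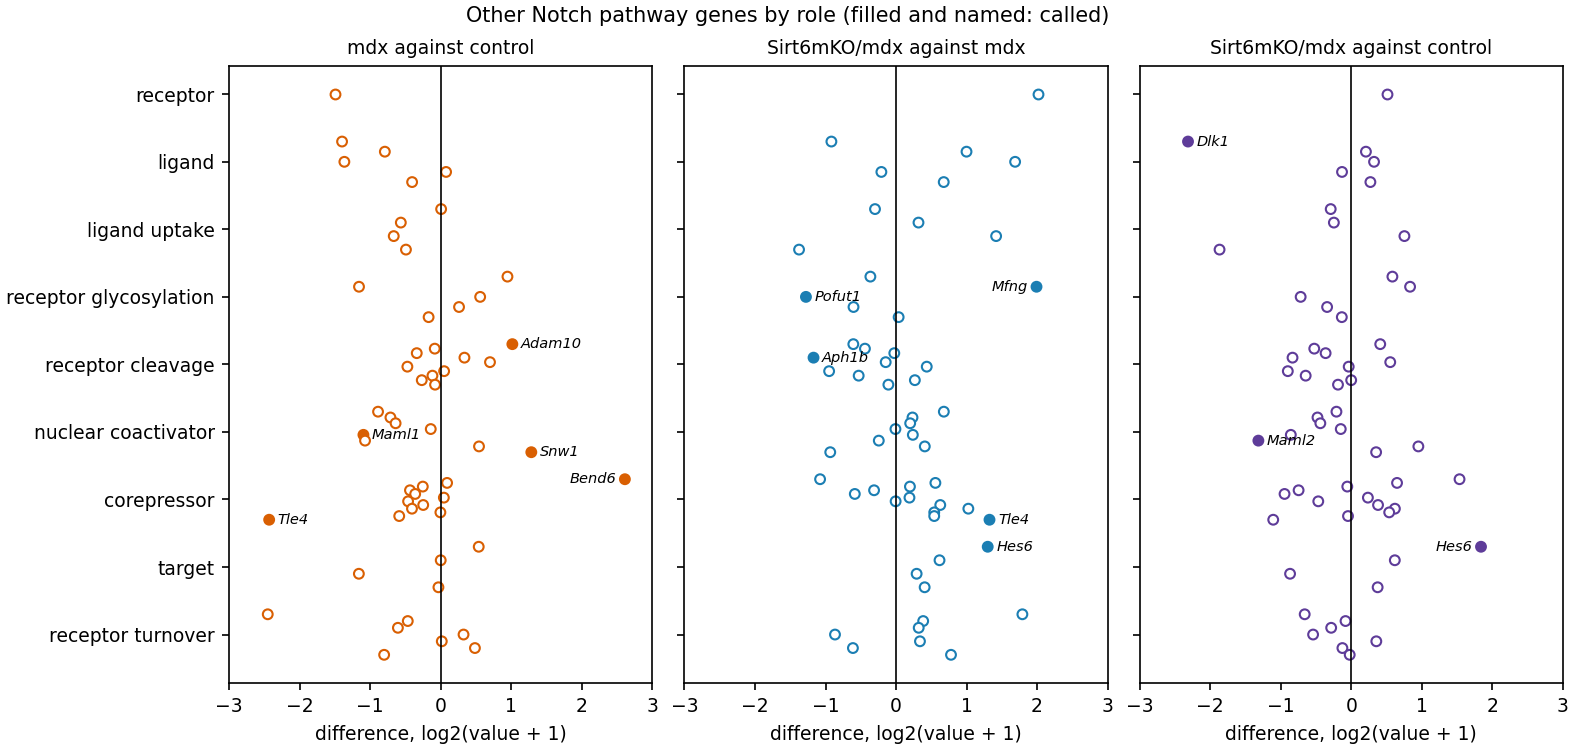
Differences in mean log2(value + 1) of other Notch pathway genes tested and reported, ordered by role, with 1 panel for each comparison and called genes filled and named. The named genes lie on both sides of 0 in every panel, from -2.43 for Tle4 to 2.61 for Bend6 in mdx against control.

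Outside the pathway proper, 4 genes described as Notch targets in MuSCs were read, Calcr, the calcitonin receptor, and the collagen genes Col5a1, Col5a3 and Col6a1. All 4 had a negative difference in the third group against mdx, and 1 was called, where 2.54% of all tested genes were called lower. Of the fibro-adipogenic markers Col1a1 was called lower in the same comparison, with 2013 and 1898 for mdx and 1136 and 747 for the third group (-1.08, limma adjusted p = 0.0230), and its part in these values was not tested. Col6a1 had 2825 and 4671 normalized reads for control and 3885 and 3837 for mdx and fell to 1800 and 1990 in the third group (-1.03, SE 0.31, limma adjusted p = 0.0484). The most abundant genes of these lists by normalized reads were Col5a3 with a mean of 4241, Dtx4, a ubiquitin ligase of the Deltex family, with 3827, Col6a1 with 3168, Col5a1 with 3106 and the corepressor Ncor1 with 1551. Dtx4 had 5345 and 4413 normalized reads in mdx and 2837 and 2504 in the third group, a difference of -0.87 that was not called (limma adjusted p = 0.0926). None of the differences of Col5a3, Col5a1 or Ncor1 was called.

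For the 3 called members the genes with the most similar profile were searched among 9665 genes with a mean of at least 50, by the root mean square difference of centered log2(value + 1) over the 6 libraries. For Notch3 these were Otub2 (0.12 on the log2 scale), Manba (0.14) and Flna (0.14), of which Flna, the gene of filamin A, is abundant with 5382 and 5150 normalized reads in the control libraries, 3374 and 4757 in those of mdx and 2100 and 2297 in the third group. For Hes1 they were Mrpl38 (0.13), Polr3gl (0.14) and Mrpl14 (0.14), and for Heyl 2610507B11Rik (0.05), Trps1 (0.09) and Dnajc27 (0.10). The likeness is a description over 6 libraries in 3 groups.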

How the data were processed

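RNA of sorted MuSCs was measured in 6 libraries of 3 groups. Per the labels and the study's methods, rRNA-depleted total RNA was sequenced on an Ion Torrent instrument, and the authors aligned reads with STAR 2.4.2a, counted them per gene on GRCm38 with featureCounts 1.4.5-p1 and normalized with DESeq2 1.6.0, versions as in the submitters' processing notes (the study's text gives others for STAR and DESeq2). The use of strand in counting was not stated. The deposited values are a score, whole-number normalized read counts that the authors made by dividing each library by a size factor (0.537 to 1.53, recovered from the spacing of the values) and rounding. They are not raw counts, so no count model was run.

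Genes with a mean of at least 5 over the 6 libraries (15915 of 22706) were tested on log2(value + 1) with limma 3.58.1 in R 4.3.3, with a prior variance that follows the mean, all libraries in one fit and no block. All p-values are two-sided, adjusted by Benjamini-Hochberg over all tested genes. Fold changes on this scale understate low genes. The fit was also run on simulated data, whose outcome is not reported here. GENCODE mouse release 21 held 98.5% of the table's genes and gave positions and exon lengths, and promoter windows came from RefSeq (GRCm38.p6). Depth, as the values times the size factors, ran from 4407597 to 9738836 reads and limits low genes most. Alternatives were the offset (0.1 or 5), the minimum mean (none or 50), scaling (total or upper quartile), the prior variance, a replicate block, only the 4 libraries compared, and each library left out in turn.

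All 10 members were to be named, and of the other Notch genes and MuSC targets those called in any comparison and the 5 with the highest mean. 1 gene that this rule names is counted but not reported here. Notch4, Ncstn and the genes of the label checks were named after their values were seen. The members and all lists were chosen with earlier results of these data known.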

Additional observations from a re-analysis of the deposited data

How the results depend on the processing

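Of 300 single-member differences under the other settings, 277 kept direction and call, and of 180 with 1 library left out, 154 did. Only Hes1, Notch3 and Heyl were called in the main fit, so most values that kept their state were differences that stayed uncalled. A call was lost by 10 values under the other settings and by 13 with 1 library left out. Scaling to the same total changed most, also over all 15915 tested genes. Genes called lower in the third group rose from 405 to 2932 against mdx and from 427 to 2693 against control. Those called higher fell from 895 to 479 and from 826 to 455. Members called in the third group went from 1 higher and 0 lower to 0 and 4 (Notch3, Jag1, Rbpj and Heyl) against mdx, and from 1 higher and 2 lower to 0 and 6 (the 3 receptors, Rbpj, Heyl and Numb) against control, and other pathway genes from 4 higher and 2 lower to 0 and 12 against mdx and from 2 to 16 lower against control. Differences changed sign for Notch1 (-0.59), Notch2 (-0.55), Dll1 (-0.34) and Hey1 (-0.051) against mdx and for Dll1 (-0.44) against control, all of them near or above the shifted median of -0.58. With no minimum mean or with one prior variance, 0 members and 0 other pathway genes were called in either direction in both comparisons of the third group, and 1 other gene was called higher in mdx than in control under each of these settings (1 lower with no minimum mean). With an offset of 0.1 or scaling to the upper quartile, 1 other gene was lower against mdx. An offset of 5, a robust prior variance or the replicate block gave 4 lower against control, and only the 4 libraries compared gave 0. The cause was not tested. Over all genes, no minimum mean gave 154 higher and 14 lower against mdx in place of 895 and 405, and limma with one prior variance gave 0 of either, with 3156 genes at an unadjusted p under 0.05.

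With 1 library left out, where the lone library of a group is assumed to vary like the others, calls against mdx ranged from 0 to 1 (members higher), 0 to 6 (others higher) and 0 to 2 (others lower), those against control from 0 to 1 (members higher), 0 to 2 (members lower), 0 to 1 (others higher) and 0 to 3 (others lower), and those of mdx against control from 0 to 3 (others higher) and 1 to 4 (others lower). Where such an omission turned the sign of a member, none of the values was called. The difference between mdx and control then ranged from -0.40 to 0.14 for Dll1, -0.27 to 0.46 for Jag1, -0.54 to 0.052 for Hes1 and -0.21 to 0.37 for Hey1, that between the third group and mdx from -0.31 to 0.39 for Notch1, -0.17 to 0.33 for Notch2 and -0.89 to 0.056 for Rbpj, and that between the third group and control from -0.11 to 0.43 for Dll1 and -0.67 to 0.065 for Jag1.

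Whether the replicate numbers pair the libraries is not given by the labels. The differences between replicates 1 and 2 correlated between groups with Pearson's r of -0.0445, 0.22 and 0.0482 across genes, which cannot exclude a pairing. The replicate block moved 1 count by over 1.5 times, the 2 other pathway genes lower against control, to 4, and changed the call of no member.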
